A study of Mus musculus with 24 samples.

Results

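The subject here is 40 mouse genes of the lysosome, chosen by name: 27 soluble lysosomal proteins, 4 membrane proteins, 6 subunits of the proton pump and 3 transcription factors. They were found by gene symbol among the 56941 gene identifiers of the deposited count table, and all 40 passed the filter on low counts that left 14757 genes for testing. The rule that names them uses no measured value. The cells were bone marrow-derived macrophages (BMDM), which are macrophages grown from mouse bone marrow in medium conditioned by L929 fibroblasts, a source of macrophage growth factor. Poly(A) RNA was sequenced from 3 genotypes: the wild type (WT), cells in which Hdac9 was knocked out (KO), and dCIS, which lacks a cis-regulatory element of the same gene. Hdac9 encodes a class IIa histone deacetylase. Cells of each genotype were left untreated or given lipopolysaccharide (LPS), the outer-membrane component of Gram-negative bacteria that activates macrophages, at 100 ng/ml for 6 hours. Each of the 6 groups had 4 libraries. Neither the strain, age and sex of the mice nor the number of mice behind the 4 libraries of a group is stated in the sources used here. The spread that the p-values rest on is that between libraries, and it may be technical.

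Lysosomes break down what macrophages engulf and what cells deliver by autophagy. Their hydrolases work in an acid interior, which the vacuolar ATPase (V-ATPase) keeps acid by pumping protons through a membrane sector (V0) driven by an ATP-splitting sector (V1), and most soluble hydrolases reach the lysosome with a mannose 6-phosphate tag. Genes of this organelle are known targets of the MiT/TFE factors TFEB, TFE3 and MITF, which the mTORC1 kinase holds in the cytoplasm through the Rag GTPases when nutrients are ample, and which bind short DNA motifs with the core CACGTG.

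The libraries held 14636058 to 19181707 counts. Levels are given as CPM, a gene's counts relative to its library's size, with library sizes scaled by the trimmed mean of M values (TMM). Of 8 macrophage markers, none was at 0 in any group, and their summed level was 15400 to 25877 CPM. Summed levels of the neutrophil, lymphocyte and mast cell marker lists reached at most 4.67 CPM. A list of 8 fibroblast and endothelial markers went from 2.92 to 6.14 CPM untreated up to 48.3 to 80.5 after LPS, mostly through Kdr (mean 2.27 to 38.0 CPM in WT). Of this list, Col3a1 was at 0 in all 4 libraries of every group and Col1a2 and Dcn in those of some groups. The other genes of the list were at 0 throughout in no group. The part of this list in the LPS results was not tested. Hdac9 was at 9.15 to 12.4 CPM in untreated WT, 0.841 to 1.31 in untreated KO and 13.0 to 17.9 in untreated dCIS libraries, and after LPS at 10.4 to 16.5, 0.0898 to 0.464 and 9.89 to 21.2 CPM. The KO libraries were thus low, and the dCIS libraries were not lower than WT. Libraries 3 and 4 of dCIS after LPS stood apart with 17628 and 15997 genes with a count, against 20458 or more in each other library. Library 2 of KO stood apart within its genotype: it was the highest of the 4 KO libraries for 26 of the 40 members untreated and for 29 after LPS. Where leaving out these libraries ended the call of a named gene, the value without them is given beside it.

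The 40 members made up 4.43 to 5.02% of all counts in untreated WT libraries and 3.25 to 3.40% after LPS. In KO the share went from 4.20 to 5.33% down to 2.84 to 3.18%, and in dCIS from 4.89 to 5.19% down to 3.39 to 3.54%. The groups with and without LPS did not overlap in any genotype. As a share of all counts the middle gene of all those tested fell too, by log2 -0.80 (WT), -0.80 (KO) and -0.81 (dCIS). The lower share is thus not by itself a fall relative to other genes. A few abundant transcripts carried much of the members' counts. Psap (saposin precursor), Ctsb and Ctsd (cathepsins B and D) together made up 52.96 to 57.4% of them in untreated libraries. After LPS they made up 47.1 to 51.7%. Per kilobase of exon, the most abundant members in untreated WT were Psap (2655 CPM per kilobase), Ctsd (1802), Ctsb (1404) and Ctss (cathepsin S, 1284), and the least abundant were Ctsk (4.23) and Tfeb (6.33). After LPS in WT, Ctss (1997) and Ctsb (1783) ranked above Ctsd (1511), and the lowest member was Sgsh (1.13). In bulk RNA, a change in the number of cells of a type and a change of RNA per cell cannot be told apart.

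How the libraries are scaled decides the sign of the smaller changes after LPS. With TMM scaling the middle gene of all those tested moved by 0.00 (WT), 0.02 (KO) and -0.05 (dCIS) on the log2 scale. With total counts and no scaling factor it moved by -0.80, -0.80 and -0.81. All log2 changes below are on the TMM scale, so they are changes relative to the middle gene, and a member with a log2 rise under about 0.8 fell as a share of all counts. On the total-count scale 18 of the 40 members changed sign in WT, 17 in KO and 21 in dCIS.

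With TMM scaling, 14 members rose and 10 fell after LPS in WT, 12 rose and 11 fell in KO, and 16 rose and 11 fell in dCIS (edgeR quasi-likelihood test, Benjamini-Hochberg adjusted p under 0.05 over all genes tested). On total counts these counts became 3 and 32, 3 and 33, and 3 and 32. The median log2 change of the members there was -0.73 (WT), -0.81 (KO) and -0.69 (dCIS). For all genes it was -0.80, -0.80 and -0.81, and the share of all genes called on that scale is not given here. With TMM scaling, 30.4% of all genes tested rose and 31% fell in WT. These shares were 30.9% and 30.7% for KO and 31.3% and 33.3% for dCIS, so the members were called about as often as genes in general. At least 2-fold changes were fewer: 3 members rose and 4 fell by that much in each genotype. Among all genes such changes made up 16.4% higher and 17.5% lower in WT, against 17% and 17.5% for KO and 17.8% and 18.3% for dCIS. The median log2 change of the members was 0.07, 0.01 and 0.07 in WT, KO and dCIS, against 0.00, 0.02 and -0.05 for all genes.

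The same 12 members rose in all 3 genotypes and the same 10 fell in all 3. The risers were the cathepsins Ctsc, Ctsz, Ctss and Ctsl, the glycosidase Gla, Grn, Lamp1, Lamp2, the V-ATPase subunits Atp6v1b2 and Atp6v1h, and the factors Mitf and Tfe3. On total counts only Ctsc, Lamp2 and Mitf of these 12 stayed higher in all 3 genotypes. The 10 that fell were Sgsh, Manba, Neu1, Gusb, Naglu, Smpd1, Lipa, Ctsd, Atp6v0d2 and Tfeb. Each of them fell on total counts as well, but that was fixed in advance, since that scale lowers log2 changes by about 0.8. Another 12 were called in no genotype: Asah1, Atp6ap1, Atp6v0d1, Cd63, Ctsa, Ctsk, Gaa, Idua, Mcoln1, Ppt1, Psap and Tpp1. The remaining 6 (Atp6v1a, Ctsb, Ctsh, Glb1, Hexa and Lgmn) were called in 1 or 2 genotypes. Of all genes, 25.9% rose in all 3 genotypes, 25.1% fell in all 3 and 24.8% were called in none.

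**Figure D1:**
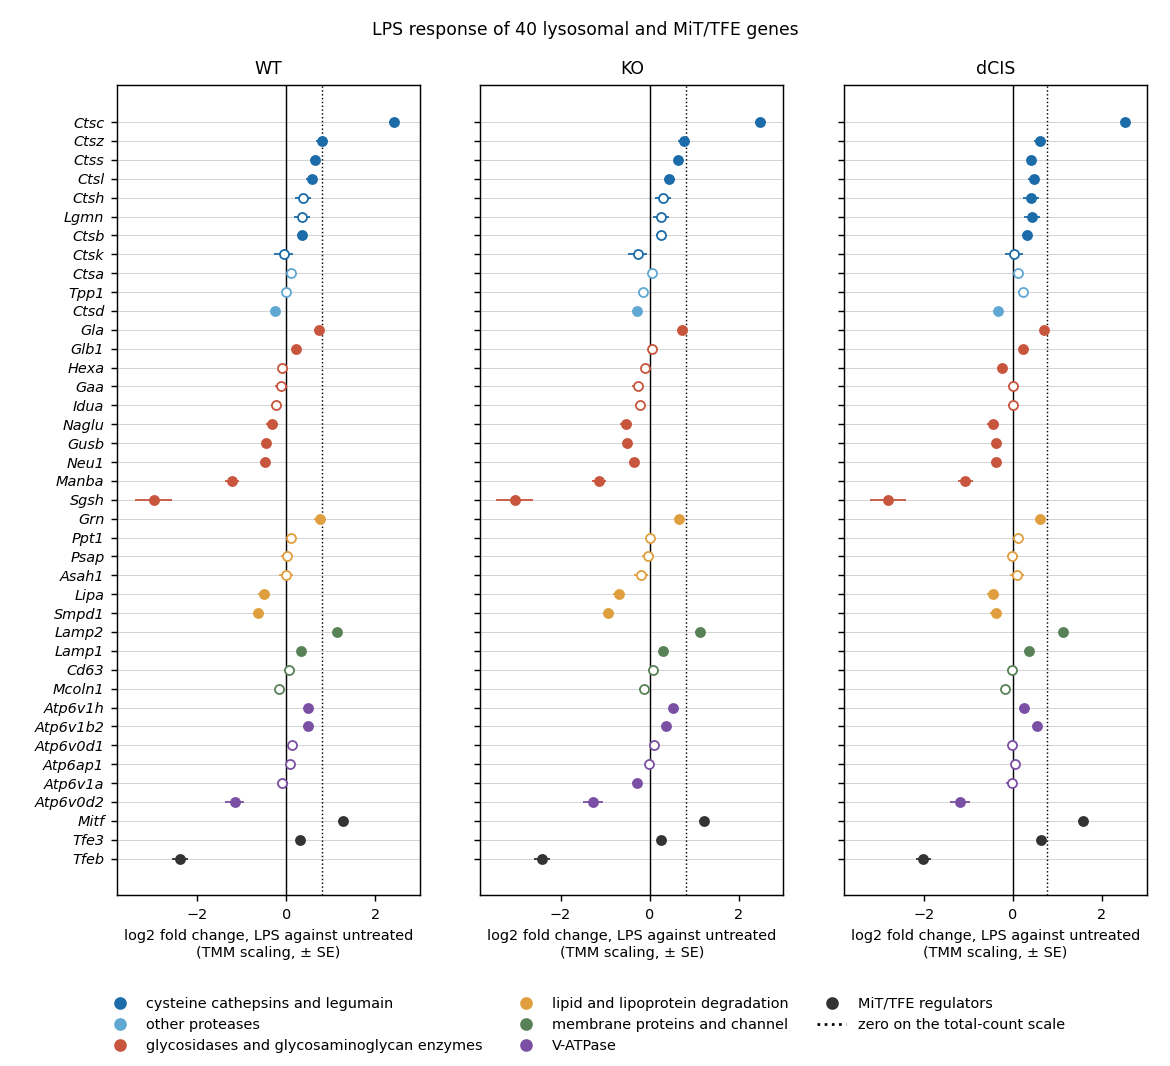
Log2 fold change after LPS (x axis, TMM scaling) of the 40 members by role (y axis) in WT, KO and dCIS; points are edgeR estimates from 4 libraries a group with bars of ± 1 SE, filled where adjusted p is under 0.05, and the dotted line marks zero on the total-count scale. Ctsc, Lamp2 and Mitf lie to the right of both lines in each genotype, and the other called risers lie left of the dotted line or at it (Ctsz in WT), where the sign turns on total counts.

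Promoter sequence is shown for the members with the largest rise and the largest fall, and for 7 of the 13 with the MiT/TFE core motif, since the 3 factors themselves changed: the 6 called in all 3 genotypes after LPS, and Glb1. RefSeq promoter windows (GRCm38.p6, 250 bases before to 50 after a transcription start) were at hand for 34 of the 40 genes. CACGTG, which reads the same on both strands, was present in 13 of the 34 genes (38.2%), against 8.09% of all gene symbols with a window. The longer TCACGTG, which contains it, was found on either strand in 12 members (35.3%) against 4.29%, and GTCACGTG, which contains both, in 10 members (29.4%) against 2.55%. The 13 genes were Atp6v0d1, Atp6v1a, Ctsa, Ctsd, Ctsl, Gaa, Gla, Glb1, Lamp1, Lgmn, Mcoln1, Naglu and Sgsh. After LPS 3 of these rose in all 3 genotypes (Ctsl, Gla and Lamp1, each reversed on total counts), 3 fell in all 3 (Ctsd, Naglu and Sgsh), 4 were called in none (Atp6v0d1, Ctsa, Gaa and Mcoln1) and 3 in some. None of the windows of Tfeb, Tfe3, Mitf, Ctsc, Lamp2 or Manba held these letters. A match is a description of the letters and not a binding site, and its absence says nothing of the factors. The stretches around the longest match, 5′ to 3′ on the gene's strand and ending at the start site at the latest, have 1 match of the longest motif in capitals:
Sgsh, chr11:119355511-119355564, minus strand: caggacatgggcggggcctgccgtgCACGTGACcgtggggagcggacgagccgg
Naglu, chr11:101069994-101070051, plus strand: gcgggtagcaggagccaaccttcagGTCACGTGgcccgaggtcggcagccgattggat
Ctsd, chr7:142388040-142388077, minus strand: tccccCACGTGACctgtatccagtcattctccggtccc
Gla, chrX:134601169-134601226, minus strand: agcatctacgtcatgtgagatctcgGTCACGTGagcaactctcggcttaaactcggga
Glb1, chr9:114401003-114401060, plus strand: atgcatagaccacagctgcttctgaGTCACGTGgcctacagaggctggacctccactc
Lamp1, chr8:13159108-13159160, plus strand: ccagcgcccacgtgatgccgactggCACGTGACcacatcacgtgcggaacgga
Ctsl, chr13:64370726-64370770, minus strand: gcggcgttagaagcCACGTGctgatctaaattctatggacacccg

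For comparison, the 250 bases before the start are shown for the member with the largest rise, Ctsc, which has no CACGTG there, and for the one with the largest fall, Sgsh, with its CACGTG in capitals:
Ctsc, chr7:88277835-88278084, plus strand: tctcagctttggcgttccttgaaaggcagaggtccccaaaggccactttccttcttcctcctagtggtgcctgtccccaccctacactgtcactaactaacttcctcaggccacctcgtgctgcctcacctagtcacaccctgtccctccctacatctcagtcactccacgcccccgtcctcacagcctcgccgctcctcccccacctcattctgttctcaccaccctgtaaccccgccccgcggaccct
Sgsh, chr11:119355511-119355760, minus strand: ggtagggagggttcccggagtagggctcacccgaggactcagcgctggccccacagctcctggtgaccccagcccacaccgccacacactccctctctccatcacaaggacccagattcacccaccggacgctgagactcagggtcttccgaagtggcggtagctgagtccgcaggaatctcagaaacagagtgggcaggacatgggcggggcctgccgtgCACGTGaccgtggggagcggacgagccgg

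Among the 8 cysteine proteases, 5 rose after LPS in WT and none fell, but on total counts only Ctsc rose and 4 fell. Ctsc (ENSMUSG00000030560.18) encodes cathepsin C, a dipeptidyl peptidase that activates serine proteases of immune cells. It was at 236, 276, 278 and 314 CPM in untreated WT libraries 1 to 4 and at 1459, 1521, 1388 and 1547 CPM after LPS. Every LPS library was thus above every untreated one, with a log2 rise of 2.42 (SE 0.12, adjusted p = 9.89e-16, edgeR). The rise was 2.49 in KO, from 287 to 318 CPM up to 1499 to 1911, and 2.52 in dCIS, from 204 to 302 up to 1391 to 1717, again without overlap. In the list of members ordered by CPM per kilobase of exon, Ctsc went from rank 22 to rank 11 in WT.

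Ctsz, Ctss and Ctsl encode cathepsins Z, S and L, of which cathepsin S trims the invariant chain of MHC class II. Ctsz (ENSMUSG00000016256.11) was at 988, 942, 1106 and 932 CPM in untreated WT and at 1742, 1685, 1876 and 1645 CPM after LPS, a log2 rise of 0.81 (SE 0.13, adjusted p = 7.43e-06, edgeR) that became 0.00 on total counts. Ctss (ENSMUSG00000038642.11) was at 1607, 1825, 1852 and 1690.1 CPM before and 2752, 2745, 2829 and 2523 CPM after, a log2 rise of 0.64 that became -0.17 on total counts. Ctsl (ENSMUSG00000021477.10) was at 647, 822, 741 and 580.4 CPM untreated and 1089, 1134, 1059 and 879.6 CPM with LPS, a log2 rise of 0.58 that became -0.23. In WT none of these 3 overlapped between treatments on the TMM scale. Ctsz rose by 0.76 in KO and 0.61 in dCIS, where the libraries overlapped (817 to 1453 untreated, 1399 to 1938 with LPS). Ctss rose by 0.65 and 0.41 and Ctsl by 0.44 and 0.46 in KO and dCIS, without overlap. With no filter on low counts, Ctss in dCIS (0.27, adjusted p = 0.0737) and Ctsl in KO (0.29, adjusted p = 0.0536) were not called.

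The other members of the class had smaller values. Ctsb (cathepsin B) was called higher in WT (log2 0.34, adjusted p = 0.00866) and dCIS (0.32, adjusted p = 0.0134) and missed the threshold in KO (0.25, adjusted p = 0.0549). Ctsh (cathepsin H) and Lgmn (legumain, which cleaves after asparagine and processes cathepsins) were called only in dCIS, at 0.41 and 0.42, with 0.38 and 0.35 in WT. On total counts these values turned to -0.46, -0.58 and -0.45 for Ctsb in WT, KO and dCIS, and to -0.36 and -0.35 for Ctsh and Lgmn in dCIS. The difference between the genotypes was not called for any of these genes. Ctsk (cathepsin K, best known from osteoclasts) was the lowest member per kilobase of exon in untreated WT, at 5.67 to 7.58 CPM, and its log2 change in WT was -0.06 (95% interval -0.49 to 0.37).

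Among the other proteases, 1 of 3 fell in each genotype, and all 3 fell on total counts. Ctsd (ENSMUSG00000007891.17), the aspartic protease cathepsin D, was at 3719, 4396, 4577 and 4256 CPM in untreated WT and 3701, 3431, 3870.0 and 3211 CPM after LPS. Library 1 untreated lay within the LPS range, and the log2 change of -0.25 (SE 0.11, adjusted p = 0.0444, edgeR) lost its call when any one of 6 WT libraries was left out (all but untreated library 1 and LPS library 3), with an adjusted p between 0.0547 and 0.134. The fall was 0.29 in KO, where it lost its call without untreated library 2 (adjusted p = 0.0600), without LPS library 4 (adjusted p = 0.0621) and without both libraries numbered 2 (adjusted p = 0.0581). It was 0.34 in dCIS. Tpp1 (a tripeptidyl peptidase) and Ctsa (cathepsin A, which protects neuraminidase and beta-galactosidase) had log2 changes of -0.01 and 0.11 in WT, neither called.

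The glycosidases held the largest fall. Of 10 members, 2 rose and 5 fell in WT, with 1 and 5 for KO and 2 and 6 for dCIS, while on total counts none of the 10 rose in WT and 9 fell. Sgsh (ENSMUSG00000005043.14) encodes N-sulfoglucosamine sulfohydrolase, which removes sulfate from heparan sulfate. Its CPM were 33.3, 39.2, 35.4 and 49.0 in untreated WT libraries and 5.80, 4.81, 4.31 and 5.01 after LPS, a log2 change of -2.98 (SE 0.42, adjusted p = 7.12e-07, edgeR). KO libraries held 32.2, 100.0, 26.5 and 40.0 CPM untreated and 4.82, 13.3, 2.26 and 4.15 after LPS, and dCIS libraries 46.1, 68.3, 32.1 and 32.0 untreated and 6.73, 9.29, 3.95 and 5.64 after LPS. No LPS library of any genotype reached the lowest untreated one. The log2 change was -3.03 in KO and -2.81 in dCIS.

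Sgsh was also the member that varied most between libraries within each KO and dCIS group. Its highest KO library was 3.78 times its lowest when untreated and 5.89 times after LPS, where the median over the 40 members was 1.27 and 1.23 times. In both cases library 2 was the highest and library 3 the lowest. Library 2 was the highest dCIS library as well, with ratios of 2.13 and 2.35. In WT the ratio of Sgsh was 1.47 untreated, below that of Atp6v0d2 (1.81).

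Manba (ENSMUSG00000028164.16), beta-mannosidase, was at 45.3, 50.2, 45.6 and 51.2 CPM in untreated WT and at 23.9, 22.0, 17.5 and 19.6 CPM after LPS, a log2 change of -1.21 (SE 0.16, adjusted p = 3.19e-07, edgeR). It fell by 1.14 in KO, from 44.5 to 62.2 CPM down to 20.1 to 26.6, and by 1.07 in dCIS, from 43.1 to 52.5 CPM down to 15.3 to 30.7. Neu1 (ENSMUSG00000007038.6), the lysosomal sialidase, was at 89.6, 78.4, 91.9 and 91.7 CPM untreated and 66.7, 57.3, 66.4 and 63.4 CPM after LPS in WT, where it fell by 0.47. It fell by 0.36 in KO and 0.39 in dCIS, and in dCIS the libraries overlapped. Gusb (beta-glucuronidase) and Naglu, the glucosaminidase of heparan sulfate breakdown, fell by 0.45 and 0.32 in WT. The call of Naglu there was near the threshold (adjusted p = 0.0449, edgeR). Its libraries overlapped in WT (73.8 to 101.6 CPM untreated, 61.1 to 77.0 with LPS) and in KO (66.6 to 119.2 and 56.1 to 70.2). Gla (ENSMUSG00000031266.8), alpha-galactosidase A, was the glycosidase that rose in all 3 genotypes: its CPM were 165, 161, 172 and 141 in untreated WT and 273, 275, 245 and 268 after LPS, with a log2 rise of 0.73 (SE 0.11, adjusted p = 2.45e-06, edgeR) that became -0.08 on total counts. It rose by 0.73 in KO and 0.71 in dCIS, and no genotype's groups overlapped. Glb1 (beta-galactosidase) was called in WT (0.22, adjusted p = 0.0466) and dCIS (0.23), and reversed on total counts in WT (-0.59). Gaa (acid alpha-glucosidase), Hexa (the alpha chain of beta-hexosaminidase) and Idua (iduronidase) were not called in WT, with log2 changes of -0.12, -0.09 and -0.23.

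Among the 6 genes of lipid and lipoprotein breakdown, Grn rose and Smpd1 and Lipa fell in all 3 genotypes, and on total counts none rose and 5 fell in WT. Grn (ENSMUSG00000034708.13) encodes progranulin, which lysosomal proteases cut into granulins. It went from 1529, 1886, 1685 and 1883 CPM to 2906, 3026, 2835 and 3032 CPM in WT, a log2 rise of 0.76 (SE 0.12, adjusted p = 7.94e-06, edgeR) that became -0.05 on total counts. It rose by 0.67 in KO (1521 to 2309 CPM untreated, 2455 to 3546 with LPS) and by 0.61 in dCIS, without overlap. Smpd1 (ENSMUSG00000037049.10), acid sphingomyelinase, went from 19.3, 23.6, 25.3 and 26.8 CPM to 14.7, 15.7, 15.9 and 15.0 CPM in WT, a log2 change of -0.63. It fell by 0.92 in KO and by 0.39 in dCIS, where library 4 after LPS (24.0 CPM) lay within the untreated range and the other 3 did not. With only the groups compared, the dCIS change was -0.38 (adjusted p = 0.0581).

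Lipa (ENSMUSG00000024781.17) encodes the acid lipase that hydrolyses cholesteryl esters and triglycerides. It was at 777, 888, 919 and 982 CPM in untreated WT and 648, 591, 588 and 694 CPM after LPS, a log2 change of -0.50 (SE 0.13, adjusted p = 0.00144, edgeR). It fell by 0.70 in KO and by 0.45 in dCIS, where the libraries overlapped (626 to 1025 CPM untreated, 507 to 702 with LPS). Without libraries 3 and 4 of dCIS after LPS the dCIS change was -0.28 (adjusted p = 0.107) and no longer called. Psap, the precursor of the saposins that present lipids to hydrolases, was the most abundant member per kilobase of exon before and after LPS. Its level was 6308 to 7957 CPM in untreated WT and 7158 to 7591 CPM with LPS, and its log2 change was 0.01 (95% interval -0.26 to 0.28). Asah1 (acid ceramidase) and Ppt1 (palmitoyl-protein thioesterase) were at -0.01 and 0.10.

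**Figure D2:**
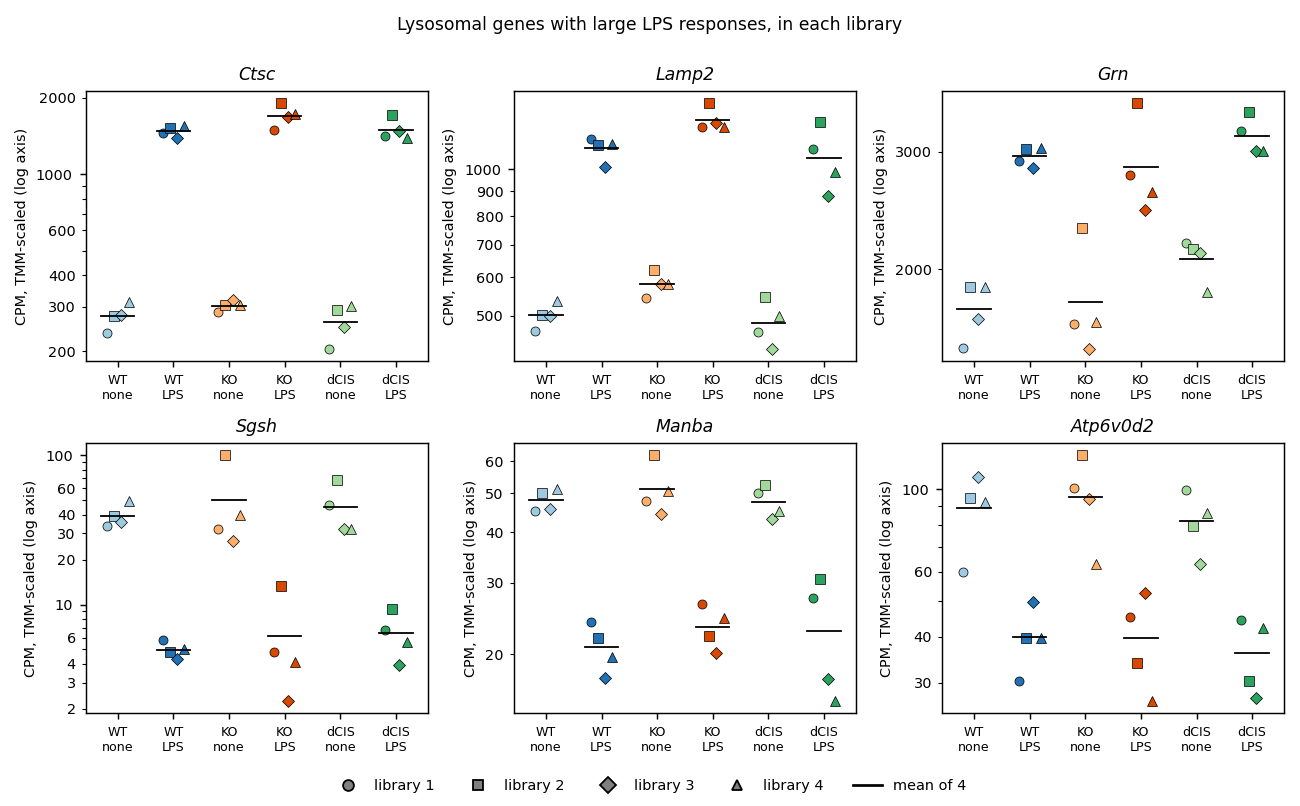
CPM in each of the 24 libraries (y axis, log scale) of 6 members in the 6 groups (x axis); symbols mark the library number and the bar is the mean of 4. Ctsc and Lamp2 were higher in each LPS library than in each untreated library of the same genotype, Grn likewise (reversed on total counts), and Sgsh, Manba and Atp6v0d2 were lower; the square of KO library 2 is the highest KO point for Sgsh.

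Both LAMP genes rose in all 3 genotypes, Lamp1 reversing on total counts. Lamp2 (ENSMUSG00000016534.16) encodes an abundant glycoprotein of the lysosomal membrane needed for fusion with autophagosomes and phagosomes. It went from 465, 500.4, 499.6 and 537 CPM to 1153, 1124, 1012 and 1129 CPM in WT, a log2 rise of 1.14 (SE 0.10, adjusted p = 1.98e-10, edgeR), and it stayed higher on total counts (0.33). The rise was 1.12 in both KO and dCIS, without overlap. Lamp1 (ENSMUSG00000031447.8), its close relative, went from 1585, 1697, 1811 and 1960.4 CPM to 2320.0, 2172, 2155 and 2286 CPM, a log2 rise of 0.34 that became -0.47 on total counts. The rise was 0.31 in KO and 0.35 in dCIS, and in KO library 2 untreated (2059.8 CPM) overlapped the LPS libraries (2052 to 2418). Without dCIS untreated library 3, the dCIS rise of Lamp1 was 0.22 (adjusted p = 0.0622). With no filter on low counts, Lamp1 was not called in any genotype (0.18 in WT, adjusted p = 0.340), and with only the groups compared it was not called in KO (0.22, adjusted p = 0.112). Cd63, a tetraspanin of late endosomes, and Mcoln1, the calcium channel mucolipin 1, were at 0.07 and -0.15 in WT and were called in no genotype.

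The V-ATPase members did not move as a block. In each genotype Atp6v1b2 and Atp6v1h rose and Atp6v0d2 fell, and on total counts all 6 members fell in WT. Atp6v1b2 (ENSMUSG00000006273.15) encodes a B subunit of the ATP-splitting sector, and its CPM were 490.0, 619.7, 565 and 582 in untreated WT and 812, 843, 728 and 771 after LPS, a log2 rise of 0.48. In KO its rise of 0.37 was 0.24 (adjusted p = 0.0526) without both libraries numbered 2 and 0.22 (adjusted p = 0.207) with no filter. Atp6v1h (ENSMUSG00000033793.13), the H subunit that couples both sectors, went from 127, 136, 133 and 120.4 CPM to 189, 179.8, 181 and 179 CPM in WT, a log2 rise of 0.50. In dCIS its rise of 0.24 (adjusted p = 0.0417) was lost when any one of 6 of the 8 libraries was left out (all but untreated library 3 and LPS library 4), with an adjusted p between 0.0530 and 0.194, and when the length trend described below was taken out (0.13, adjusted p = 0.382). It was not called with no filter (0.10, adjusted p = 0.578) or with only the groups compared (0.25).

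Atp6v0d2 (ENSMUSG00000028238.7) and Atp6v0d1 encode alternative d subunits of the V0 sector, of which d2 is known from osteoclasts, macrophages and a few epithelia. Atp6v0d2 was at 60.0, 95.1, 108 and 92.3 CPM in untreated WT and 30.3, 39.6, 49.7 and 39.7 CPM after LPS, a log2 change of -1.16 (SE 0.22, adjusted p = 5.47e-05, edgeR). It fell by 1.27 in KO and by 1.19 in dCIS, and no genotype's groups overlapped. Atp6v0d1 was at 238 to 266 CPM untreated and 266 to 291 with LPS in WT (log2 0.13, not called). Of the counts of both d subunits, d2 made up 20.1 to 28.9% in untreated WT and 9.44 to 15.2% after LPS. The same share was 21.8 to 35.4% and 10.4 to 17.9% in KO and 16.9 to 29.2% and 9.46 to 15.3% in dCIS, so every genotype's LPS libraries lay below its untreated ones. Atp6v1a, the A subunit, was called lower in KO (-0.29, adjusted p = 0.0440) and in neither other genotype. Atp6ap1, an assembly factor of the pump, was at 0.08 in WT.

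The 3 MiT/TFE factors moved apart. Tfeb fell and Mitf rose by more than 2-fold in every genotype, while Tfe3 rose by less. On total counts Mitf stayed higher and called, and Tfe3 reversed. Tfeb stayed lower and called there, but that scale lowers log2 changes and could not reverse a fall. Tfeb (ENSMUSG00000023990.19) encodes the factor best known for driving lysosomal genes. It was at 33.3, 37.2, 33.2 and 39.8 CPM in untreated WT libraries and 5.39, 5.98, 7.53 and 8.49 after LPS. In KO it went from 32.5, 43.5, 29.1 and 34.1 CPM to 5.01, 10.1, 5.10 and 5.90, and in dCIS from 37.3, 35.5, 31.3 and 33.0 CPM to 8.92, 7.97, 9.23 and 7.85. Its highest LPS library of all 12 thus held 10.1 CPM and its lowest untreated library 29.1 CPM. The log2 change was -2.39 (SE 0.17, adjusted p = 3.31e-12, edgeR) in WT, -2.42 in KO and -2.01 in dCIS.

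Mitf (ENSMUSG00000035158.16) encodes the family member known from melanocytes and osteoclasts. Its CPM were 71.8, 66.9, 66.9 and 70.3 in untreated WT and 178, 166, 153 and 168 after LPS, a log2 rise of 1.27 (SE 0.11, adjusted p = 9.97e-11, edgeR) that was 0.46 on total counts. In dCIS it went from 56.6, 70.3, 47.7 and 59.5 CPM to 201, 185, 147 and 162 CPM, a rise of 1.57. In KO the rise was 1.23. Tfe3 (ENSMUSG00000000134.18) was at 157, 154, 158 and 159 CPM in untreated WT and 200.3, 179, 195 and 208 CPM after LPS, a log2 rise of 0.32 that became -0.49 on total counts and 0.16 (adjusted p = 0.427) with no filter on low counts. Its rise was 0.25 in KO and 0.64 in dCIS, and neither genotype's groups overlapped. In KO the call was lost with no filter (0.10, adjusted p = 0.614) and with only the groups compared (0.17, adjusted p = 0.0557).

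The fourth gene of the family, Tfec, is not a member but was tested beside them. It went from 19.2, 14.2, 13.6 and 14.6 CPM to 53.2, 39.6, 39.8 and 43.0 CPM in WT, a log2 rise of 1.51 (SE 0.13, adjusted p = 8.84e-11, edgeR), and rose by 1.60 in KO and 1.48 in dCIS. Of the summed counts of the 4 family genes in WT, Tfeb went from 11.8 to 14.0% down to 1.24 to 1.98%, and Tfe3 from 55.8 to 58.1% down to 45.9 to 49.4%. Mitf went from 24.6 to 25.5% up to 38.7 to 42.5%, and Tfec from 5.02 to 6.84% up to 10.1 to 12.2%. Per kilobase of exon the order in untreated WT was Tfe3 (16.9 CPM per kilobase), Mitf (11.1), Tfeb (6.33) and Tfec (2.76). After LPS it was Mitf (26.8), Tfe3 (21.1), Tfec (7.85) and Tfeb (1.21). At both times the library ranges of neighbours in this order did not overlap. Exon length here joins the exons of all annotated transcripts of a gene, 9261 bases for Tfe3 and 6196 for Mitf. In CPM, Tfe3 stayed above Mitf after LPS in WT (means 196 and 166). The order of these 2 after LPS thus rests on the lengths used.

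**Figure D3:**
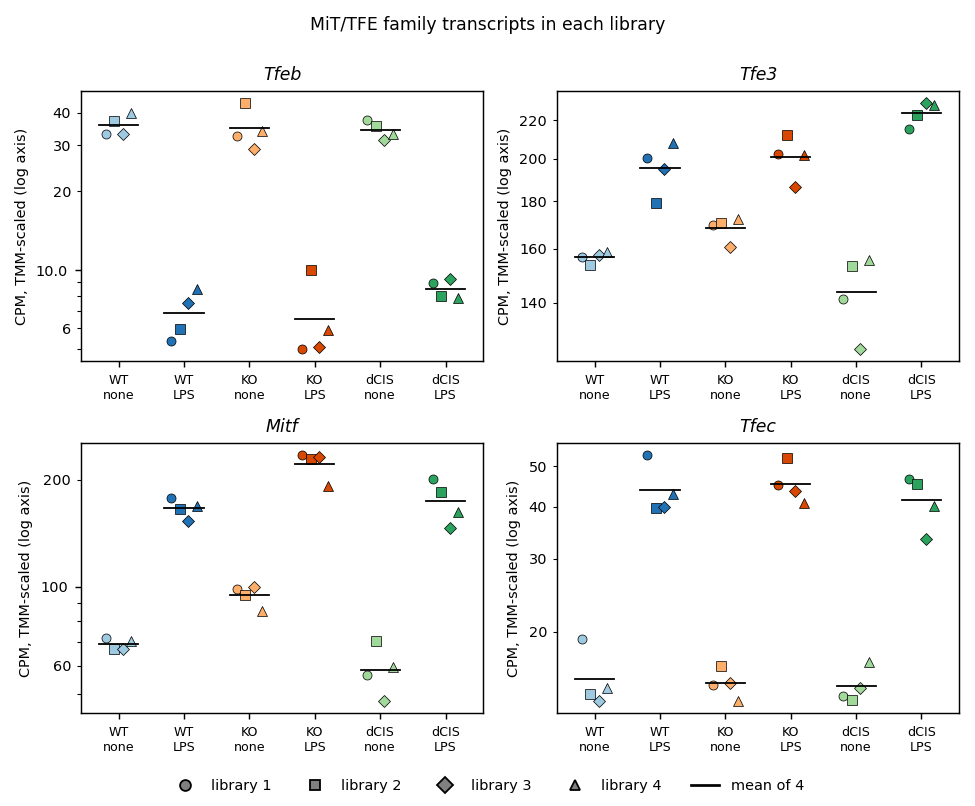
CPM of the 4 MiT/TFE family genes in each of the 24 libraries (y axes, log scale) in the 6 groups (x axis), with the library number as symbol and the mean of 4 as a bar. Tfeb was lower and Mitf and Tfec were higher in every LPS library than in every untreated library, and the 4 KO libraries lay above the 4 WT libraries for Mitf in both treatments; Tfe3 was higher after LPS here and lower on total counts.

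Genes around the members in the same pathway gave a similar mixture. Of 30 further soluble enzymes and activators, 13 rose and 7 fell in WT after LPS (3 and 23 on total counts). Examples are Dnase2a (acid DNase) and Pla2g15 (lysosomal phospholipase A2), which fell by 1.20 and 1.97. Of 23 further membrane proteins, 6 rose and 9 fell (0 and 18 on total counts). Tpcn1, which encodes an ion channel of endosomes and lysosomes, fell by 3.07, and the cystine exporter gene Ctns by 2.21, while Cln3 was at 0.98, and at 0.17 (adjusted p = 0.109) on total counts. Of 16 tested of 17 further V-ATPase subunits and accessory proteins, 8 rose and 6 fell (2 and 12 on total counts). Atp6v1d and Atp6v1e1 of the V1 sector rose by 1.53 and 1.21, and the assembly factor gene Ccdc115 fell by 1.12.

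Sorting, inhibitor and control genes were split as well. Of 10 genes of mannose 6-phosphate tagging and sorting, 4 rose and 2 fell (2 and 8 on total counts): the receptor gene M6pr rose by 1.11 and Gnptab, which encodes the enzyme that starts the tag, by 1.32, and the adaptor gene Gga2 fell by 2.01. All 3 tested of 8 cathepsin inhibitor genes rose, but only Cst7 (cystatin F) did so on total counts. Its log2 rise was 6.22, and Cstb and Cst3 (cystatins B and C) were at 0.37 and 0.44, which became -0.44 and -0.37. Of 15 tested of 16 genes of the Rag, Ragulator and folliculin control of MiT/TFE factors, a list that holds Tfec, 6 rose and 3 fell (1 and 12 on total counts). Rragd fell by 2.50, and Rragc was at 0.93, or 0.12 (adjusted p = 0.297) on total counts. Of 21 autophagy genes, 6 rose and 9 fell (2 and 18 on total counts), among them Atg16l1 at 1.34, Uvrag at 0.86 (0.05 on total counts, adjusted p = 0.631) and Atg7 at -0.83. Log2 values of genes in this and the preceding paragraph are from edgeR with an adjusted p of at most 0.00465, and the lists were chosen with earlier results of these data known.

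The LPS responses of the members were not shown to differ between genotypes. No member was called for a different response in KO than in WT, where 3 of all genes (0.0203%) were, and none reached an unadjusted p under 0.05. The 3 smallest p-values belonged to Smpd1, Glb1 and Atp6v1a. No member was called for dCIS against WT either, where 0 of all genes (0%) were called by edgeR, while 1159 had an unadjusted p under 0.05 and DESeq2 called 9. Among the members 1 reached an unadjusted p under 0.05: Tfe3, whose rise was larger in dCIS by 0.32 on the log2 scale (95% interval 0.09 to 0.55, adjusted p = 0.541, edgeR).

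Between the knockout and WT, edgeR called 1 of the 40 members in each treatment, Mitf, where 7.31% of all genes were called untreated and 2.74% after LPS. In KO its CPM were 98.8, 94.6, 100.2 and 85.5 untreated and 235, 229, 231 and 192 after LPS, so that every KO library lay above every WT library of its treatment. The log2 difference was 0.46 (SE 0.11, adjusted p = 0.0191, edgeR) untreated and 0.41 (SE 0.11, adjusted p = 0.0364) after LPS. Untreated, the call was lost without WT library 2 (adjusted p = 0.0789), WT library 3 (0.0708), KO library 1 (0.0539) or KO library 3 (0.0543). After LPS it was lost without WT library 1 (adjusted p = 0.0535), 2 (0.111), 3 (0.187) or 4 (0.0520), without KO library 1 (0.136), 2 (0.0734) or 3 (0.0973), and without both KO libraries numbered 2 (0.0656).

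Differences between KO and WT moved with gene length over all genes, and Mitf is a long gene (6196 bases of exon in GENCODE M21). The rank correlation across 14532 genes between the log2 difference and exon length was 0.491 untreated and 0.427 after LPS, a description with no test. Of 5 equal bins of genes by length, the shortest (under 1476 bases) had a median log2 difference of -0.25 untreated and -0.19 after LPS. The longest (over 6873 bases) had 0.27 and 0.25. The next-longest bin, which holds Mitf, had 0.10 untreated and 0.10 after LPS. Library by library, the correlation of the deviation from the mean of its treatment with length was 0.144 to 0.413 in the 8 KO libraries and -0.401 to -0.035 in the 8 WT libraries. In dCIS it ranged from -0.452 to 0.238, and the highest values were those of libraries 2. With offsets that take this trend out of each library, an alternative chosen after seeing the data, the difference of Mitf was 0.34 (SE 0.09, adjusted p = 0.0608, edgeR) untreated and 0.32 (SE 0.09, adjusted p = 0.107) after LPS, and no member was called. The count of all genes called went from 1079 to 173 untreated and from 405 to 104 after LPS.

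**Figure D4:**
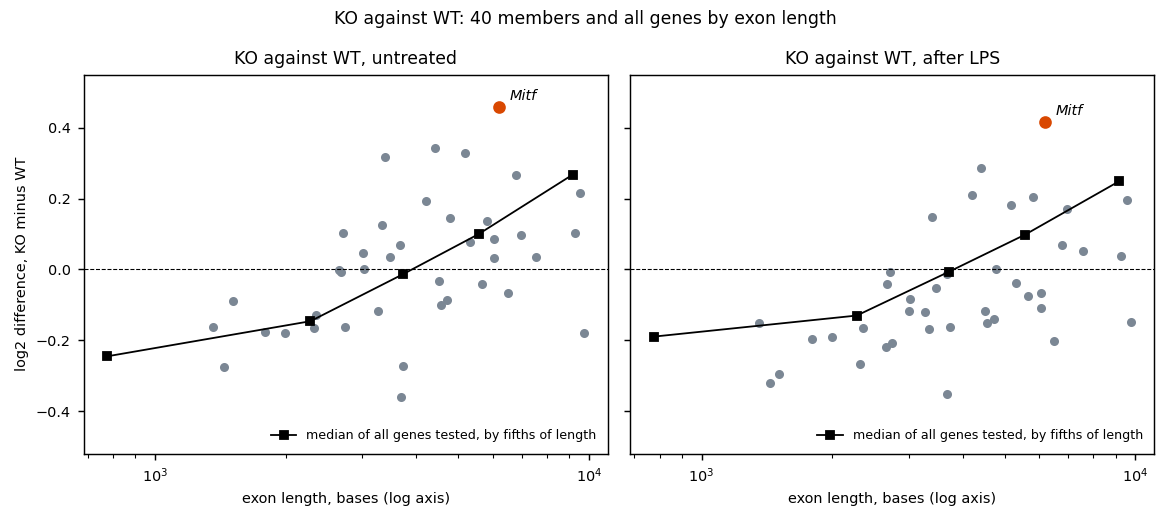
Log2 difference between KO and WT (y axis, TMM scaling) of the 40 members (points) against exon length in bases (x axis, log scale), untreated and after LPS, with Mitf marked; the line joins the medians of all genes tested in 5 equal bins of length. The line climbs from -0.25 to 0.27 untreated and from -0.19 to 0.25 after LPS, and Mitf lies above it at 0.46 and 0.41.

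Markers of osteoclasts, another cell type in which Mitf is known, were higher in sum in untreated KO than in untreated WT libraries. The summed level over 8 genes was 62.7 to 78.9 CPM in untreated WT, 106 to 191 in untreated KO, 50.3 to 72.6 in WT after LPS and 69.8 to 162 in KO after LPS. Mmp9 made up much of it, at 16.2 to 32.5 CPM in WT and 29.4 to 136 in KO untreated. Nfatc1, also on the list, was at 29.86 to 40.37 CPM in WT and 43.23 to 61.65 in KO untreated. After LPS it was at 12.85 to 17.37 in WT and 17.42 to 21.9 in KO, without overlap in either treatment. Itgb3 overlapped, at 3.62 to 7.31 CPM in WT and 4.50 to 8.83 in KO untreated. Acp5, which encodes the osteoclast phosphatase, was at 4.36 to 7.71 CPM in WT and 4.36 to 6.77 in KO untreated, and at 8.17 to 12.0 in WT and 3.98 to 7.00 in KO after LPS, where it was called lower (-0.79). Of the defining markers, Calcr was at 0 in all untreated libraries of WT and KO, and Ocstamp and Oscar had at most 4 counts in any library. Dcstamp had 2 to 25 counts in WT and 7 to 28 in KO libraries untreated, and 0 to 1 and 1 to 7 after LPS. In dCIS the 8 genes summed to 54.0 to 70.3 CPM untreated and 52.8 to 67.8 after LPS. Dendritic cell markers, a list of 7, summed to 8.67 to 14.3 CPM in untreated WT and 11.7 to 27.2 in untreated KO. The part of these lists in the Mitf difference was not tested.

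The 39 other members were not called between KO and WT by edgeR in the model over all 6 groups. DESeq2 called 3 members untreated and 2 after LPS, and edgeR with only the groups compared called 4 in each. In the model over all groups the 39 had log2 differences from -0.36 to 0.34 untreated and from -0.35 to 0.29 after LPS. Cd63 had the lowest value in both, at 233 to 297 CPM in KO against 314 to 360.5 in WT untreated (-0.36, adjusted p = 0.0663) and 257 to 295 against 326 to 397 after LPS (-0.35, adjusted p = 0.102). Tpp1 was at 253 to 279.6 CPM in untreated KO against 198 to 233 in WT (0.33, adjusted p = 0.0635). Neither gene overlapped between these groups, and neither was called. Of the other pathway lists, the same comparison called 2 of 30 soluble enzymes untreated, Ifi30 (a thiol reductase, -0.44) and Ids (iduronate sulfatase, 0.58), and 2 after LPS, Ifi30 (-0.49) and Acp5 (the tartrate-resistant phosphatase, -0.79). It called 1 of 23 membrane proteins untreated, Npc1 (the cholesterol transporter, 0.46), and none after LPS.

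Among 16 further V-ATPase genes 5 were called untreated, among them the V1 subunit gene Atp6v1f (-0.49) and the regulators Wdr7 (0.54) and Dmxl2 (0.68), and 2 after LPS, Ccdc115 (-0.47) and Atp6v1f (-0.35). Beside these list counts, 7.31% of all genes were called untreated and 2.74% after LPS. Of the sorting genes, Igf2r, the large mannose 6-phosphate receptor, was called in both treatments (0.67 and 0.60) and Gnptab untreated (0.53). Mtor (0.64) and the autophagy gene Ulk2 (0.50) were called untreated, and the autophagy gene Atg9a (0.73) after LPS. With the length trend taken out, the call of Atp6v1f untreated stayed and every other call named in these 2 paragraphs was lost. Each of those other calls was also lost when at least 1 single library was left out, except that of Wdr7 (0.28, adjusted p = 0.0975, with the length trend taken out). Without both KO libraries numbered 2 the calls of Ids (adjusted p = 0.0632), Npc1 (0.0763), Ulk2 (0.0957) and Atg9a (0.0683) were lost.

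Deletion of the cis-regulatory element was followed by no call among the members. Against WT, 0 of the 40 were called untreated, where 0.0542% of all genes were, and 0 after LPS, where 0.258% were. By DESeq2 the count was 0 in both as well. At an unadjusted p under 0.05 there was 1 member untreated, Mitf at -0.24 (95% interval -0.46 to -0.01), and 2 after LPS, Tfe3 at 0.20 (0.03 to 0.36) and Idua at 0.25 (0.00 to 0.49). The next smallest p-values were those of Grn and Tfe3 untreated and of Smpd1 after LPS. Since KO and dCIS were each set against the same WT libraries, the 2 sets of differences share those libraries: Mitf differed by 0.46 in KO and -0.24 in dCIS untreated and by 0.41 and 0.07 after LPS.

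Set against each other, KO and dCIS differed in 6 members untreated, where 21.3% of all genes were called, and in none after LPS, where 2.18% were. Mitf was higher in KO by 0.69 (SE 0.11, adjusted p = 0.000332, edgeR), Tpp1 by 0.46, Asah1 by 0.45 and Tfe3 by 0.23, and Cd63 and Ctsz were lower by 0.38 and 0.39. Mitf (85.5 to 100.2 against 47.7 to 70.3 CPM), Tpp1 (253 to 279.6 against 154 to 235) and Tfe3 (161 to 173 against 125 to 156) did not overlap, and the other 3 did. Cd63, Ctsz, Asah1 and Tfe3 lost their calls when single libraries were left out (each of the 4 KO libraries and dCIS libraries 1, 3 and 4 for at least 1 of them). Without dCIS library 3 their adjusted p was 0.217, 0.274, 0.178 and 0.196. The calls of Ctsz (adjusted p = 0.103), Asah1 (0.147) and Tfe3 (0.0593) were also lost without both KO libraries numbered 2. With only the groups compared, Mitf alone stayed called, and Tpp1 was at an adjusted p of 0.0534. With the length trend taken out, Mitf remained higher by 0.57 (adjusted p = 0.000489), Tfe3 was at -0.03, Ctsz was no longer called (-0.19, adjusted p = 0.230), and Atp6v1h was called lower (-0.57, adjusted p = 0.00804).

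After LPS the 3 smallest p-values between KO and dCIS belonged to Mitf (0.35, adjusted p = 0.0786), Smpd1 (-0.40, adjusted p = 0.0947) and Lamp2 (0.26, adjusted p = 0.146), and by DESeq2 no member was called either. The unadjusted p was under 0.05 for 9 members there. Mitf was called after LPS when dCIS library 1 (0.43, adjusted p = 0.0417) or 2 (0.38, adjusted p = 0.0392) was left out, and with library numbers blocked across the 6 groups (0.36, adjusted p = 0.0349). Smpd1 (-0.45, adjusted p = 0.0381) and Lamp2 (0.36, adjusted p = 0.0286) were called too without dCIS library 2, and Smpd1 on total counts (-0.50, adjusted p = 0.0469).

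Among the other pathway genes the untreated comparison of KO and dCIS called, for example, Igf2r (0.79), Dmxl2 (0.79), Mtor (0.76), Atg9a (0.99), Ids (0.69), Gnptab (0.64), the sorting receptor gene Sort1 (0.71), the autophagy gene Wipi1 (0.60), Npc1 (0.54), Wdr7 (0.46) and Rptor (0.37) as higher in KO. It called Ifi30 (-0.51), Lamtor2 (-0.60), Gabarap (-0.44), Dnase2a (-0.43), the membrane protein gene Tmem192 (-0.41) and Atp6v1f (-0.36) as lower. Of these, Ifi30, Gabarap, Tmem192, Npc1, Wdr7, Atp6v1f and Rptor lost their calls with the length trend taken out (adjusted p 0.0676 to 0.976). Lamtor2 (adjusted p = 0.0914), Gabarap (0.0851), Dnase2a (0.0703), Tmem192 (0.0609) and Rptor (0.108) lost theirs without dCIS library 3, and Rptor also without KO library 1, 3 or 4 or dCIS library 4. With only the groups compared, Gabarap, Dnase2a, Tmem192, Atp6v1f and Rptor were not called (adjusted p 0.0512 to 0.0724). After LPS it called Acp5 (-0.80) and Ifi30 (-0.42), and neither stayed called with the length trend taken out, with only the 2 groups fitted, or without libraries 3 and 4 of dCIS after LPS.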

How the data were processed

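Each library's gene counts were deposited by the authors as whole, unnormalised counts for 56941 gene identifiers. STAR, edgeR and the mouse build mm39 are named per the submitters' processing notes. The sources used here do not give their versions, the counting program, its annotation or its use of strand, so reads of overlapping or antisense genes may be shared. Symbols were found for 51948 identifiers.

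Counts were analysed in R 4.3.3 with edgeR 4.0.16: filterByExpr (minimum count 10, minimum total 15) kept 14757 genes, TMM factors scaled the libraries, and 1 quasi-likelihood model over the 6 groups of 4 gave 11 contrasts, with Benjamini-Hochberg adjusted p under 0.05 as a call. DESeq2 1.42.0 was an alternative, as were RLE factors, total counts, other filters, replicate blocks, leaving out libraries and, chosen after seeing the data, length offsets. Exon lengths (GENCODE M21, exons of all transcripts of a gene joined) were found for 98.5% of genes tested. The models were tested on simulated data in which few genes changed after LPS, so the choice of scaling was not tested there. No 2 libraries of a group were duplicates (smallest chi-square over degrees of freedom 8.39).

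Library numbers come from the labels. Same-numbered untreated and LPS libraries deviated together in WT (r 0.113 to 0.150) and KO (0.155 to 0.296), each above 0.1, so the numbers pair them there. In dCIS r was 0.040 to 0.339. In all 3 genotypes, dCIS included, each untreated library correlated best with the LPS library of its own number. The values reported are from the model without that block, and the blocked fit is an alternative.

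The members were named by a rule with no measured value, but they and the lists were chosen with earlier results of these data known. Genes named were up to 4 called members per role with the largest change in WT, all 3 MiT/TFE factors, called members or the 3 with the smallest p in genotype contrasts, and up to 3 called genes per other list. One gene that this rule names is not reported here.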

Additional observations from a re-analysis of the deposited data

Results flagged for a closer look

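For 20 members, each of the 6 groups of 4 libraries was searched for a library far from the other 3, and 5 of 120 groups held one. Chance alone gives about 1 in 20 groups. Library 2 of KO stood above the other 3 for Lamp1, untreated (2059.79 CPM, others 1640.0 to 1659) and after LPS (2417.74 CPM, others 2052 to 2109), and for Atp6v1b2 after LPS (967.852 CPM, others 683 to 724). Library 4 of KO after LPS was below the others for Mitf (191.932 CPM, others 229 to 235). Library 4 of dCIS after LPS was above the others for Smpd1 (23.9603 CPM, others 15.7 to 16.4). Of these 5 values, 3 belong to the KO libraries numbered 2, which were the highest KO library for most members.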

How the results depend on the processing

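Of the values of 139 named gene results under the alternatives, 2206 kept direction and call, 217 lost the call, 6 gained it and 30 reversed. With total counts in place of TMM, whose cause is the scaling itself, the members at least 2-fold higher became 1 in each genotype and those at least 2-fold lower 11 (WT), 15 (KO) and 11 (dCIS), beside the 3 higher in each and the 32, 33 and 32 lower given above. The log2 changes that reversed there were, in WT, KO and dCIS, for Tfe3 -0.49, -0.57 and -0.12, for Atp6v1h -0.31, -0.29 and -0.52, for Atp6v1b2 -0.32, -0.46 and -0.24, for Ctss -0.17, -0.18 and -0.35, for Ctsl -0.23, -0.38 and -0.29, for Gla -0.078, -0.10 and -0.059, for Grn -0.051, -0.16 and -0.16, for Lamp1 -0.47, -0.52 and -0.42, for Ctsz -0.060 (KO) and -0.14 (dCIS), and in WT for Cstb -0.44 and Cst3 -0.37. With length offsets, Tfe3 (-0.032) and Rptor (-0.0062) reversed between KO and dCIS untreated.

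Members called between KO and WT untreated numbered 1, and 2 with RLE factors, with no filter or without both KO libraries numbered 2, 3 with DESeq2, 4 with only the groups compared and 0 with length offsets. After LPS they numbered 1, and 2 with DESeq2, 4 with only the groups compared, 0 with length offsets and 0 without both KO libraries numbered 2. Between KO and dCIS untreated they numbered 6, and 1 with only the groups compared. After LPS they numbered 0, and 2 on total counts, 1 with length offsets and 1 without both KO libraries numbered 2. With no filter, 9 members rose in dCIS after LPS, not 16. The cause was not tested for any of these. Fits of only the groups compared hold fewer libraries. They called more members between KO and WT and fewer between KO and dCIS untreated.

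Counts over all genes moved as follows. KO against WT untreated (1079) gave 173 with length offsets, 2034 with DESeq2 and 2351 with only the groups compared, and after LPS (405) gave 104, 1080 and 1995, and 1038 with no filter. Untreated dCIS against WT (8) gave 80 with no filter and 19 with DESeq2, and after LPS (38) gave 277, 203, 12 with only the groups compared and 6 without libraries 3 and 4. KO against dCIS untreated (3147) gave 1807 with length offsets and 1317 with only the groups compared, and after LPS (322) gave 850 with no filter, 656 with DESeq2, 82 with only the groups compared and 62 without libraries 3 and 4. The difference of the LPS response of KO (3) gave 12 with no filter and 6 with DESeq2. That of dCIS (0) gave 35 with no filter, 9 with DESeq2, and 1 with total counts, length offsets, the stricter filter or without libraries 3 and 4.

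The replicate block within each genotype changed no count of members and no named call, and moved 1 count over all genes, the difference of the LPS response of dCIS (1, not 0). A replicate block over all groups, where numbers do not pair genotypes (r -0.154 to 0.187), gave 3 and 2 members between KO and WT untreated and after LPS, 10 and 1 between KO and dCIS, and over all genes 1973 and 1058 for KO against WT, 34 and 91 for dCIS against WT, 751 for KO against dCIS after LPS and 1 for the difference of the LPS response of dCIS.

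Leaving out each library in turn gave 13 to 14 members higher and 8 to 10 lower in WT, 12 to 15 and 9 to 12 in KO and 11 to 16 and 10 to 12 in dCIS. Members called ranged from 0 to 2 (KO against WT untreated), 0 to 1 (after LPS), 2 to 12 (KO against dCIS untreated) and 0 to 3 (after LPS). Over all genes the ranges were 90 to 951 and 68 to 455 for KO against WT, 5 to 9 and 16 to 195 for dCIS against WT, 1198 to 4488 and 122 to 1446 for KO against dCIS, 2 to 4 for the difference of the LPS response of KO and 0 to 3 for that of dCIS.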

Other observations

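The pathway genes around the members were counted in the other 2 genotypes as well, with TMM scaling. After LPS, 9 of the 30 further soluble enzymes rose and 9 fell in KO, and 14 rose and 8 fell in dCIS (on total counts 2 and 25, and 3 and 19). Of the 23 further membrane proteins, 5 rose and 12 fell in KO and 7 rose and 8 fell in dCIS (0 and 18, and 2 and 18 on total counts). For the 16 V-ATPase genes the counts were 8 and 6 in KO and 5 and 6 in dCIS (2 and 12 in both on total counts). The 10 tagging and sorting genes gave 3 and 2 in KO and 4 and 2 in dCIS (2 and 8, and 2 and 7 on total counts), the 15 Rag and Ragulator genes 6 and 3 in both (1 and 12, and 2 and 10), and the 21 autophagy genes 7 and 10 in KO and 7 and 8 in dCIS (2 and 18, and 2 and 16). Of the 3 cathepsin inhibitor genes, 3 rose in KO and 2 in dCIS (1 in both on total counts).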
